A study of Mus musculus with 6 samples.

Results

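The kinetochore, centromere and spindle checkpoint genes described here are 36 genes chosen by symbol from the 24346 genes in each table, and all 36 were found. They were read in kidney messenger RNA from 6 mouse samples, 3 labelled vehicle and 3 labelled D-serine. All 6 samples came from mice on a serine-free diet with 1 kidney removed (unilateral nephrectomy), taken 2 days after the operation. The diet ran for 1 week before it, with plain drinking water for the vehicle group and water holding 0.1% D-serine, the mirror image of the amino acid L-serine, for the other. Sham-operated mice named in the protocol are not analysed here. The labels give no genotype, strain, sex or age. Nor do they tie the 3 samples of a group to separate mice, and p-values then describe only how far these samples spread, which may be technical. Values are FPKM, a gene's fragments scaled to the size of the library and to the length of the transcript, and are given for replicates 1, 2 and 3 in that order.

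The kinetochore is the protein structure that joins a chromosome to the microtubules of the mitotic spindle. It is built on the centromere, whose chromatin carries the histone H3 variant CENP-A, from an inner network of CENP proteins and an outer layer that grips microtubules. The spindle checkpoint is assembled on kinetochores that are not yet attached and delays chromosome separation until they are. Many of these genes are transcribed mainly in dividing cells, and most cells of an adult kidney are not dividing, whereas tubule cells enter the cell cycle when the kidney that remains enlarges after nephrectomy.

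Depth was estimated from the spacing of the lowest values, since the tables hold no counts, and came to roughly 7120000 to 8520000 mapped fragments per library. An FPKM of 1 then stood for about 9.33 fragments of the short Cenpm transcript and 86.4 of the long Cenpf transcript, by the longest annotated form. D-serine replicate 2 was the shallowest library. Kidney markers were present in every library. The proximal tubule transporter Slc34a1 lay between 2206 and 2590 FPKM in vehicle kidneys and between 2026 and 2277 in D-serine kidneys, and Lrp2, the megalin gene, between 103 and 146 FPKM and between 62.2 and 118 FPKM.

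Most of these genes were higher in the D-serine kidneys. In whole tissue more cells of a dividing kind and more transcript per cell cannot be told apart. For 24 of the 36 every D-serine library lay above every vehicle library, against 14.5% of the 17438 genes above 0 in at least 1 library. Zwint alone had every D-serine library below every vehicle library, against 13.9% of those genes, and the groups overlapped for the other 11. The median difference in log2(FPKM + 1) over the 36 was 0.87, where over the 17438 genes it was 0.01. No member passed limma, the test run across all genes: of the 30 members that averaged 1 FPKM or more over the 6 libraries, 0 were called at an adjusted p of 0.05. Of the 11737 genes tested 0.0767% were called, 0.00852% higher and 0.0682% lower. At an adjusted p under 0.1 there were 11 higher members and 1 lower, with 5.37% of all tested genes higher. Without adjustment 17 of the 30 were higher and 1 lower at p under 0.05, and of all genes tested 13.1% were higher at that p. Among the 30, 20 were higher without overlap, against 16.5% of tested genes, and 1 was lower, against 19.4%. Since 10 of the 30 had a vehicle mean under 1 FPKM and reached the minimum only with their D-serine libraries, these limma counts are a description. Those 10 are Cenph, Cenpw, Ndc80, Nuf2, Cenpe, Cenpf, Zwilch, Spdl1, Bub1b and Ska3, and their p-values given below are a description too. The other 6 members, Cenpi, Cenpo, Nsl1, Bub1, Ttk and Ska1, stayed under the minimum and have no p-value.

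**Figure D1:**
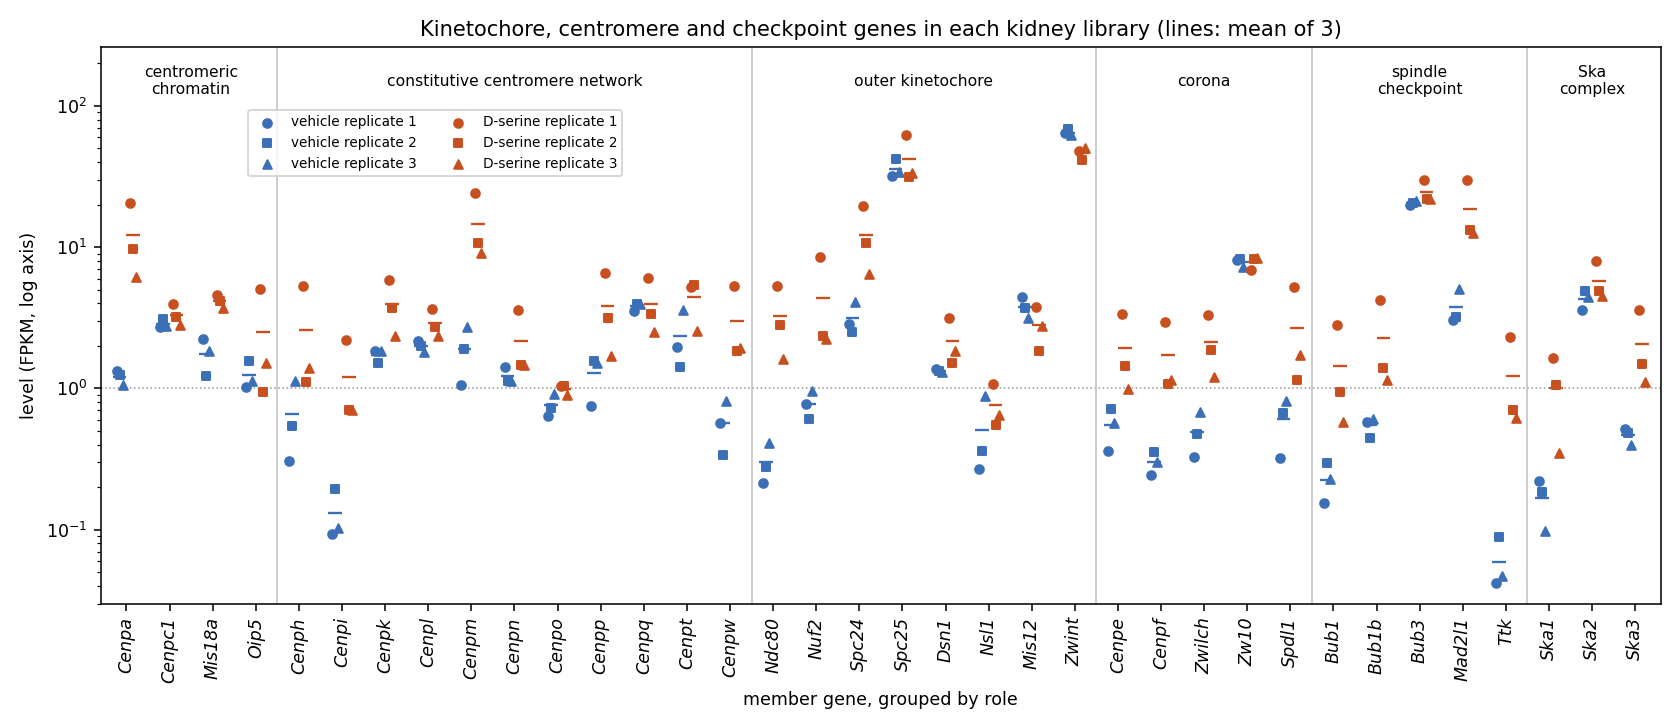
Level of each member gene in FPKM on a log axis, with 1 point per library (blue vehicle, orange D-serine, shape for the replicate) and a short line at the mean of 3. D-serine replicate 1 (orange circles) was the highest of the 3 D-serine libraries for 32 of the 36 genes, and the 3 genes with the highest vehicle levels were Zwint, which was lower, Spc25, which overlapped, and Bub3, with a ratio of means of 1.2.

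The D-serine libraries were far from equal. Replicate 1 was the highest of the 3 for 32 of the 36 members, against 31.3% of the 16821 genes above 0 in that group. Its level was 2.32 times the mean of replicates 2 and 3 at the median member, where the median of all tested genes was 1.02 times. In each library the median difference of the 36 members from the vehicle mean, in log2(FPKM + 1), was 1.48, 0.65 and 0.33 for D-serine replicates 1, 2 and 3. The vehicle libraries stood at -0.06, 0.01 and 0.04 on the same scale. Without D-serine replicate 1 the median over the 36 was 0.53 in place of 0.87, and again 24 members were higher without overlap and 3 lower, against 20.5% and 18.0% of all genes in that smaller comparison. In limma without that library Cenpa alone passed at 0.05, when 0.231% of all tested genes passed, and without D-serine replicate 3 there were 8 members higher and Zwint lower, with 5.19% of genes passing.

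**Figure D2:**
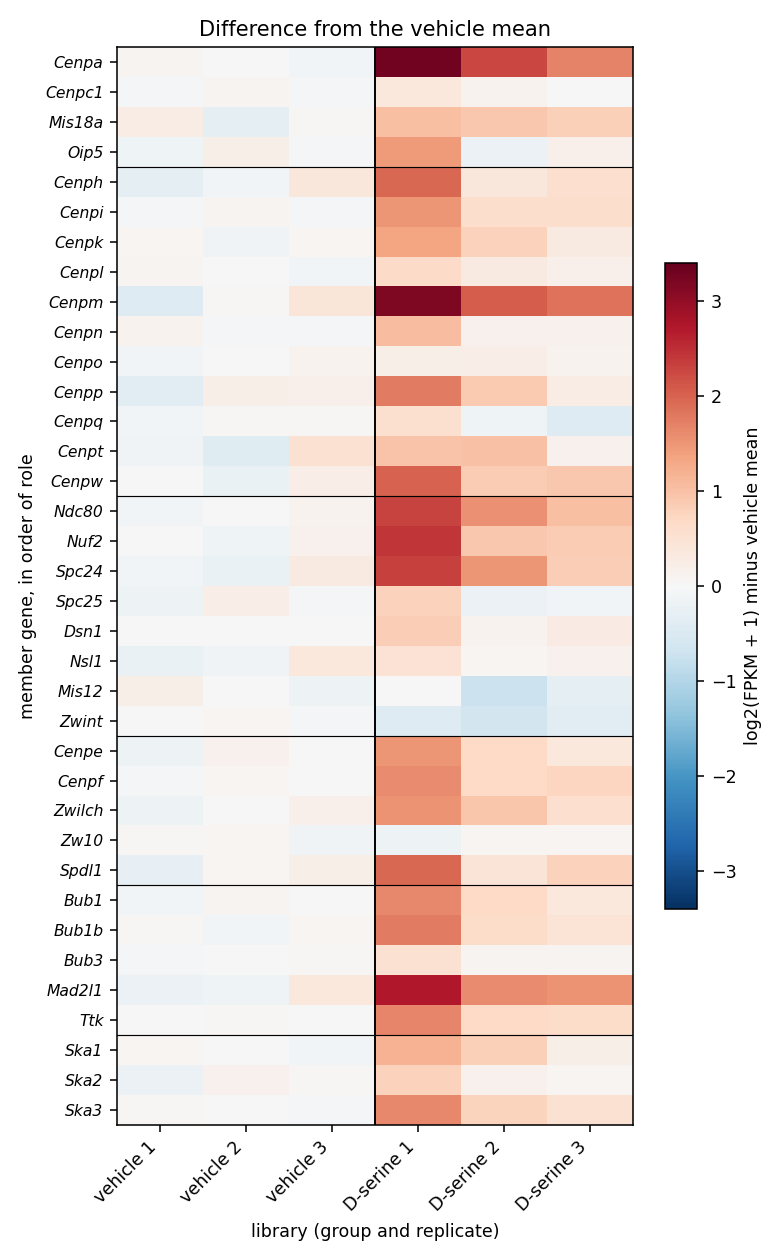
Difference of each library from the vehicle mean of the same gene, in log2(FPKM + 1), red for higher and blue for lower, with genes in order of role and libraries in columns. The column of D-serine replicate 1 is the reddest, with a median of 1.48 against 0.65 and 0.33 in the other D-serine columns, and Zwint is blue in every D-serine column.

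Markers of other kidney cell types differed between the groups beside these genes. Summed FPKM of 6 principal cell markers of the collecting duct ran from 395 to 531 with vehicle and from 581 to 821 with D-serine, with 5 of 6 genes not overlapping. Sums for intercalated cells (134 to 152 and 155 to 211), the distal convoluted tubule (563 to 734 and 746 to 874), fibroblasts, pericytes and smooth muscle (20.5 to 28.2 and 33.3 to 60.9) and injured tubule (2.07 to 5.25 and 7.18 to 11.0) were also higher in every D-serine library. In those 4 lists 3 of 5, 2 of 4, 2 of 7 and 1 of 5 genes did not overlap. For comparison with all 5 lists, 14.5% of genes above 0 in at least 1 library were higher in that way. In the list of fibroblasts, pericytes and smooth muscle the 2 were Acta2 and Tagln, the largest terms of its sum in every library. Pdgfrb, Pdgfra, Col1a1, Col1a2 and Col3a1 overlapped, all of them higher on average. The 1 injured tubule gene was Lcn2, the largest term of that sum in every library. Its mean FPKM was 2.12 for the vehicle group and 7.15 for the D-serine group. The other injured tubule genes overlapped: Havcr1 was lower on average (0.329 and 0.145), Sox9 was level (0.218 and 0.217), and Vcam1 and Krt20 were higher on average. The median log2 difference of that list was 0.12. Of the 10 proximal tubule markers 4 were lower in every D-serine library, against 19.4% of all tested genes, and 0 higher. Sums for leukocytes overlapped, at 10.8 to 18.4 and 12.4 to 21.8 FPKM. The T cell gene Cd3e was listed at 0 in all 6 libraries. Of the 10 genes 2 (Ptprc and Cd68) were higher in every D-serine library, against 14.5% of genes above 0 in at least 1 library. Ptprc was barely apart, at 0.567 FPKM in the highest vehicle library and 0.573 in the lowest D-serine library. Csf1r, with the highest vehicle mean of the list, overlapped and was lower on average (5.78 and 3.42 FPKM), as was Itgam. Adgre1, Cd79a, Lyz2, C1qa and C1qb overlapped and were higher on average. Podocyte, endothelial, thick ascending limb and erythroid sums overlapped too. The part of these shifts in the results below was not tested.

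The promoters of these genes were read because so many members were higher together. RefSeq windows from 250 bases before to 50 after the transcription start (GRCm38.p6) were held for 32 of the 36. Spc24, Nsl1, Zwilch and Ska1 had no entry. The stretches below end at or next to the RefSeq start, which for Mad2l1 and Spc25 lies upstream of the start in GENCODE, the source of the gene positions given here. Ttk, Cenpf, Bub1b and Mad2l1 stand for members that were higher in every D-serine library, Spc25 for one whose groups overlapped and Zwint for the one that was lower. Capitals mark the CCAAT box, bound by the factor NF-Y, or its reverse complement.

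Ttk (chr9:83834569-83834688, plus strand): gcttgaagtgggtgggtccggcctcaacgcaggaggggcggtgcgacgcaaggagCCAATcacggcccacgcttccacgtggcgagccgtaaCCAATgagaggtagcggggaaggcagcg
Cenpf (chr1:189688087-189688206, minus strand): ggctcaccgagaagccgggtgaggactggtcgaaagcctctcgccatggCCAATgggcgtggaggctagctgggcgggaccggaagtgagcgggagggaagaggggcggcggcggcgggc
Bub1b (chr2:118598091-118598210, plus strand): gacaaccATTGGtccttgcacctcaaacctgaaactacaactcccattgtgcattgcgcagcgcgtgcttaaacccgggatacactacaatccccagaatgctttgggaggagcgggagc
Mad2l1 (chr6:66535101-66535220, plus strand): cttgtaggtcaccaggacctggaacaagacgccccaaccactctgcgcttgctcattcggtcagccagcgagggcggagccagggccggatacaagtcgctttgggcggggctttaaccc
Spc25 (chr2:69206214-69206333, minus strand): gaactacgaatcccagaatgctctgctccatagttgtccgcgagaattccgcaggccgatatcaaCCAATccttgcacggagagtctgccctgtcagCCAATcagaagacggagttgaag
Zwint (chr10:72654726-72654844, plus strand): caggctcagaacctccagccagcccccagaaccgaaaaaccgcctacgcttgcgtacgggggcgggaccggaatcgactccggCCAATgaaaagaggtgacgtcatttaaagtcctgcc

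Ttk and Spc25 both held a pair of CCAAT boxes, at positions -65 and -28 in Ttk and -55 and -23 in Spc25, counted back from the start. CCAAT was found on either strand in 22 of the 32 members' windows (68.8%), against 42.3% of the 17492 protein-coding genes with a window. The cell cycle homology region (CHR), an element known from promoters of mitotic genes and searched as TTTGAA or TTCGAA on both strands, was found in 17 of 32 (53.1%), against 20.2% of protein-coding genes. In 8 of those 17 it lay only in the 50 bases after the start, as in Ttk (position 8), Cenpf (3), Cenpa (17), Ndc80 (30) and Spc25 (25). Another pattern, the E2F-like letters TTTCGCGC, TTTGGCGC or TTCCCGCC on both strands, was found in 7 of 32 (21.9%) against 4.41%. CHR matches stood in 14 of the 21 windows of members with D-serine libraries all higher and in 3 of the other 11. CCAAT matches stood in 14 of 21 and 8 of 11, and E2F-like matches in 3 of 21 and 4 of 11, a larger share of the others in both cases. Genes with several windows had more chances of a match, and matches of different motifs overlapped only in Cenpw, where CHR and CCAAT shared 1 base.

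Of the 4 members in centromeric chromatin and its loading, Cenpa and Mis18a were higher without overlap and the other 2 overlapped. For this role and those below, the share of all genes higher without overlap was the 14.5% given above. Cenpa, the CENP-A histone gene (chromosome 5, 30666777 to 30674830, mm10), stood at 1.33, 1.25 and 1.05 FPKM in vehicle kidneys against 20.5, 9.74 and 6.16 FPKM with D-serine. The lowest D-serine library lay far above the highest vehicle library (log2 difference 2.42 ± 0.36 SE, limma adjusted p = 0.0572). Its ratio of group means was 10.0, and 6.56 without D-serine replicate 1. Mis18a, a subunit of the complex that licenses centromeres for new CENP-A, was at 2.23, 1.22 and 1.83 FPKM and at 4.56, 4.17 and 3.74 FPKM. Its D-serine libraries were close to each other, with replicate 1 at 1.15 times the mean of the other two (log2 difference 0.92 ± 0.16, adjusted p = 0.0583). Oip5, which encodes MIS18-beta of the same complex, was at 1.02, 1.56 and 1.13 FPKM and at 5.10, 0.938 and 1.51 FPKM. Only D-serine replicate 1 lay above the vehicle libraries of Oip5, and without it the log2 difference was -0.01. The exons of Oip5 share 172 bases with the opposite-strand gene Nusap1, a mitotic gene. Cenpk, Cenpo, Cenpp, Cenpq, Cenpt, Mis12, Zwilch, Ska2 and Ska3 also share exon bases with opposite-strand genes, and the part of this in their levels was not tested. Cenpc1, the CENP-C gene that links the nucleosome to the kinetochore, was at 2.73, 3.12 and 2.75 FPKM and at 3.94, 3.18 and 2.82 FPKM, with overlapping groups (log2 difference 0.15 ± 0.13, adjusted p = 0.485).

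The constitutive centromere network, the set of CENP proteins that stays at centromeres through the cell cycle, had 7 of 11 members with D-serine libraries all higher, and a median log2 difference of 0.80. Cenpm, whose product has the fold of a small GTPase (chromosome 15, 82233779 to 82244748), was at 1.06, 1.89 and 2.71 FPKM in vehicle kidneys against 24.4, 10.7 and 9.04 FPKM with D-serine. All 3 D-serine libraries lay far above the vehicle range (log2 difference 2.36 ± 0.37, adjusted p = 0.0572). Cenpw, a histone-fold partner of CENP-T, was at 0.568, 0.340 and 0.810 FPKM and at 5.27, 1.84 and 1.93 FPKM (1.26 ± 0.32, adjusted p = 0.0804). Cenpk, whose product pairs with CENP-H, was at 1.83, 1.51 and 1.84 FPKM and at 5.86, 3.69 and 2.34 FPKM. Cenpp was at 0.751, 1.57 and 1.53 FPKM and at 6.59, 3.14 and 1.70 FPKM. The groups of Cenpp nearly met, with D-serine replicate 3 just above the highest vehicle library. Cenpi, under the minimum of the test, was at 0.0930, 0.195 and 0.103 FPKM and at 2.19, 0.704 and 0.703 FPKM, so that every D-serine library exceeded every vehicle library. Cenpl and Cenpn were also higher without overlap, by 0.38 and 0.44 on the log2 scale.

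The other 4 members of the network had overlapping groups: Cenph, Cenpo, Cenpq and Cenpt. Cenpq was at 3.52, 3.96 and 3.99 FPKM in vehicle kidneys against 6.05, 3.39 and 2.53 FPKM with D-serine. Replicate 1 lay above and replicates 2 and 3 below all vehicle libraries, and the log2 difference was -0.01 ± 0.24 (adjusted p = 0.979). Cenpq shares 95 exon bases with the opposite-strand gene Mut, which was itself at 64.5 to 72.3 FPKM with vehicle and 34.1 to 44.6 FPKM with D-serine. Cenpo, of the same subcomplex, was at 0.640, 0.724 and 0.908 FPKM and at 1.03, 1.04 and 0.90 FPKM. Cenph, at 0.308, 0.538 and 1.14 FPKM and at 5.29, 1.11 and 1.40 FPKM, overlapped by a single pair of libraries. Cenpt, which connects the inner network to the NDC80 complex, ranged from 1.42 to 3.61 FPKM and from 2.54 to 5.44 FPKM.

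In the outer kinetochore 4 of 8 members were higher without overlap and 1, Zwint, was lower. Of all genes above 0 in at least 1 library 14.5% were higher and 13.9% lower in that way. The NDC80 complex, the rod that binds microtubules, joins the NDC80 and NUF2 dimer to the SPC24 and SPC25 dimer. Ndc80 (chromosome 17, 71496100 to 71526857) was at 0.213, 0.278 and 0.412 FPKM in vehicle kidneys against 5.35, 2.79 and 1.63 FPKM with D-serine (log2 difference 1.62 ± 0.30, adjusted p = 0.0611). Nuf2 was at 0.771, 0.606 and 0.961 FPKM and at 8.58, 2.36 and 2.24 FPKM, and Spc24 at 2.88, 2.53 and 4.11 FPKM and at 19.5, 10.8 and 6.42 FPKM. For these 3 subunits the groups were well apart. Spc25 was at 31.7, 42.2 and 34.3 FPKM and at 62.2, 31.3 and 33.7 FPKM, with overlap, and the log2 difference of 0.17 was -0.14 without D-serine replicate 1 (limma adjusted p = 0.685 with all libraries). Per length, Spc25 was the most abundant of the 4 in every library: it held 89.2, 92.5 and 86.2% of their summed FPKM with vehicle and 65.0, 66.3 and 76.6% with D-serine. Within the other 3 subunits the share of Ndc80 was 7.06 ± 1.38% with vehicle and 16.5 ± 0.958% with D-serine (SD, n = 3 each), without overlap, while that of Spc24 was 74.5 ± 0.442% and 62.8 ± 4.63%.

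Zwint, which encodes an adaptor that brings the RZZ complex to the kinetochore and is also expressed in cells that do not divide, such as neurons, had the highest vehicle level of the members. It read 64.3, 68.2 and 62.0 FPKM in the vehicle kidneys, and in the D-serine kidneys 47.8, 41.5 and 50.5 FPKM, all of them lower (log2 difference -0.47 ± 0.10, adjusted p = 0.071). Without 1 library at a time this difference stayed between -0.53 and -0.39, and without D-serine replicate 3 it passed the test. The MIS12 complex joins the inner and outer layers. Mis12 was at 4.43, 3.69 and 3.17 FPKM and at 3.80, 1.83 and 2.77 FPKM, and Dsn1 at 1.38, 1.34 and 1.30 FPKM and at 3.14, 1.53 and 1.85 FPKM. Mis12 overlapped and Dsn1 did not. Nsl1, under the minimum, was at 0.268, 0.361 and 0.891 FPKM and at 1.07, 0.549 and 0.651 FPKM. Pmf1, the fourth subunit and no member of the set, was at 14.7, 14.3 and 15.9 FPKM and at 51.9, 28.3 and 23.4 FPKM, and held 72.7 ± 1.99% of the complex's summed FPKM with vehicle and 85.4 ± 3.29% with D-serine, with no overlap.

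**Figure D3:**
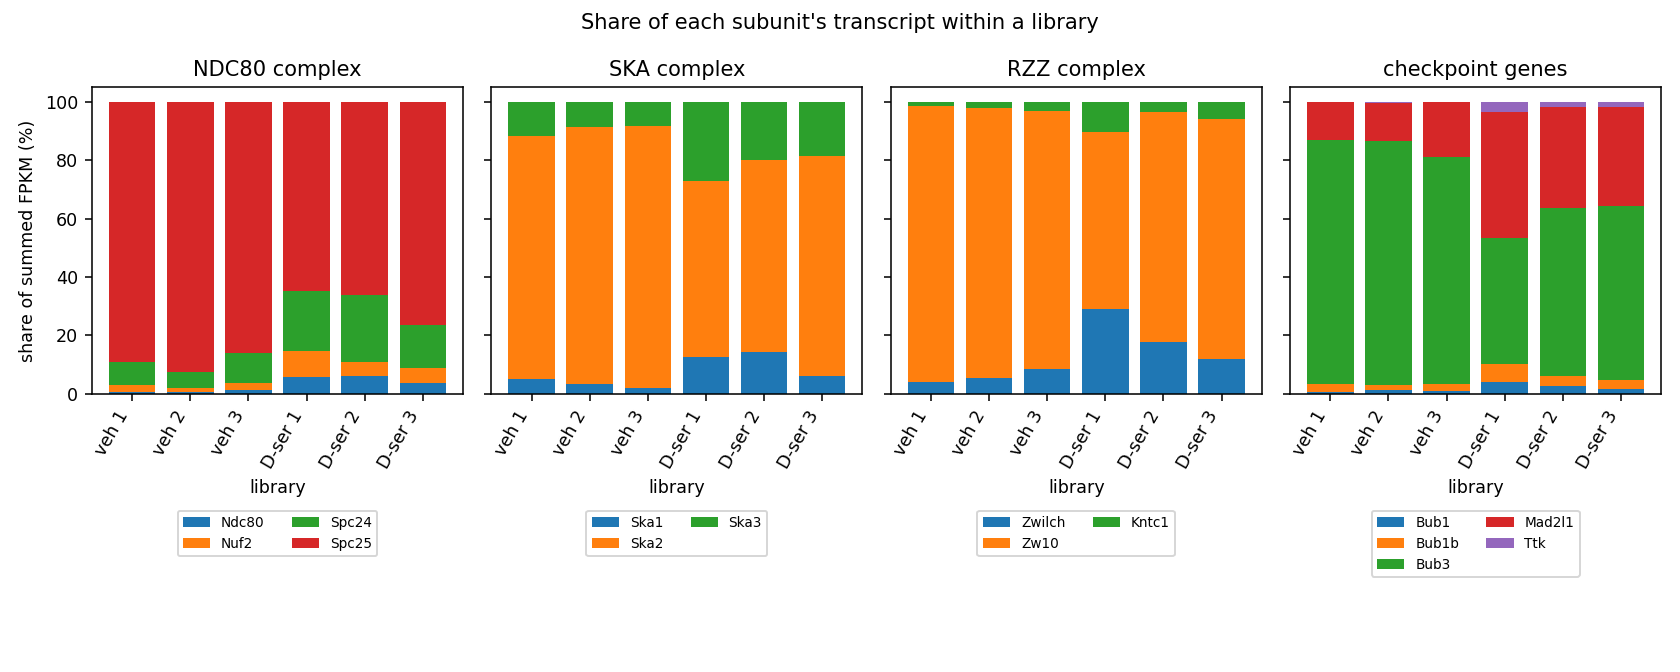
Share of each gene in the summed FPKM of its panel, as stacked bars of equal height for the 3 vehicle (veh) and 3 D-serine (D-ser) libraries. The panels are the NDC80, SKA and RZZ complexes and the checkpoint genes Bub1, Bub1b, Bub3, Mad2l1 and Ttk, which are a list and not a complex. Spc25, Ska2, Zw10 and Bub3 fill most of the vehicle bars, with mean shares of 89.3, 86.9, 91.9 and 81.8%, and less of the D-serine bars, with 69.3, 67.3, 73.9 and 53.4%.

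The corona is the outermost layer, which captures microtubules and brings in motors. Cenpf, a large corona protein gene, was at 0.243, 0.356 and 0.301 FPKM in vehicle kidneys against 2.96, 1.07 and 1.14 FPKM with D-serine (log2 difference 1.0 ± 0.27, adjusted p = 0.0849). Cenpe, the kinesin that moves chromosomes to the spindle equator, was at 0.362, 0.715 and 0.571 FPKM and at 3.37, 1.45 and 0.994 FPKM. Spdl1, the dynein adaptor Spindly, was at 0.322, 0.675 and 0.816 FPKM and at 5.2, 1.15 and 1.72 FPKM. In each of these 3 genes the groups did not overlap, and replicate 1 stood at 2.67 to 3.62 times the mean of the other D-serine libraries. Zwilch and Zw10 encode 2 of the 3 subunits of the RZZ complex, which recruits Spindly. Zwilch was at 0.329, 0.474 and 0.683 FPKM and at 3.31, 1.87 and 1.21 FPKM (1.02 ± 0.26, adjusted p = 0.0804). Zw10, which also acts in membrane traffic between divisions, was at 8.15, 8.30 and 7.20 FPKM and at 6.93, 8.29 and 8.35 FPKM. The Zw10 groups overlapped fully, with a log2 difference of -0.01 ± 0.11 (adjusted p = 0.974) whose sign depended on the scaling. Kntc1, the other RZZ subunit gene and no member, was at 0.125, 0.197 and 0.261 FPKM and at 1.18, 0.375 and 0.586 FPKM.

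All 5 spindle checkpoint members had D-serine libraries above every vehicle library. Mad2l1, the MAD2 gene whose product holds back the activator of the anaphase-promoting complex (chromosome 6, 66535390 to 66547220), was at 3.07, 3.22 and 5.03 FPKM in vehicle kidneys against 29.9, 13.3 and 12.6 FPKM with D-serine. Its log2 difference was 1.95 ± 0.32 (adjusted p = 0.0583) and its ratio of means 4.93, or 3.43 without D-serine replicate 1. Bub1b, which encodes BUBR1, a part of the same inhibitory complex, was at 0.581, 0.449 and 0.610 FPKM and at 4.25, 1.39 and 1.14 FPKM (0.96 ± 0.33, adjusted p = 0.124). The kinase genes Bub1 and Ttk lay under the minimum of the test. Bub1 was at 0.154, 0.296 and 0.227 FPKM and at 2.82, 0.951 and 0.582 FPKM. Ttk, encoding the checkpoint kinase MPS1, was at 0.0422, 0.0887 and 0.0469 FPKM with vehicle, where the lowest value stood for about 1 fragment, and at 2.33, 0.704 and 0.618 FPKM with D-serine. No ratio is given for Ttk because so few fragments lie behind its vehicle levels. Bub3, a binding partner of BUB1 and BUBR1 that is expressed in most cells, was at 19.8, 20.7 and 21.2 FPKM and at 29.9, 22.1 and 22.1 FPKM. The groups of Bub3 did not overlap, though D-serine replicates 2 and 3 lay just above the highest vehicle library, and the log2 difference was 0.24 ± 0.13 (adjusted p = 0.269).

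The Ska complex steadies the grip of the kinetochore on shrinking microtubules. Ska3 was at 0.516, 0.487 and 0.40 FPKM in vehicle kidneys against 3.58, 1.48 and 1.11 FPKM with D-serine (log2 difference 0.98 ± 0.29, adjusted p = 0.0987). Ska1, under the minimum, was at 0.221, 0.185 and 0.0979 FPKM and at 1.63, 1.06 and 0.350 FPKM. Both had groups that did not overlap. Ska2 was at 3.62, 4.86 and 4.42 FPKM and at 8.0, 4.88 and 4.52 FPKM, and D-serine replicate 3 lay under the highest vehicle library. As with Spc25 in its complex, Ska2 was the most abundant of the 3 subunits per length in every library, and its share of their summed FPKM was 86.9 ± 3.49% with vehicle and 67.3 ± 7.63% with D-serine.

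Members with low vehicle levels showed the larger ratios. Over the 36 members the log2 ratio of group means and the log2 vehicle mean were inversely related (Pearson r = -0.75, Spearman rho = -0.75), and without Zwint and Spc25 the values were -0.72 and -0.70 over 34. This is a description: the points share the same 6 libraries, the vehicle mean enters both quantities, and low levels carry the most counting error. All 16 members with a vehicle mean under 1 FPKM were higher on average and 13 of them did not overlap. Of the 20 members at or above 1 FPKM, 11 were higher without overlap, 1 was lower without overlap and 8 overlapped. The shares over all genes above 0 in at least 1 library were 14.5% higher and 13.9% lower without overlap. Cenpa, Cenpm, Mad2l1 and Spc24 combined a vehicle mean over 1 FPKM with ratios of 10.0, 7.78, 4.93 and 3.86.

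**Figure D4:**
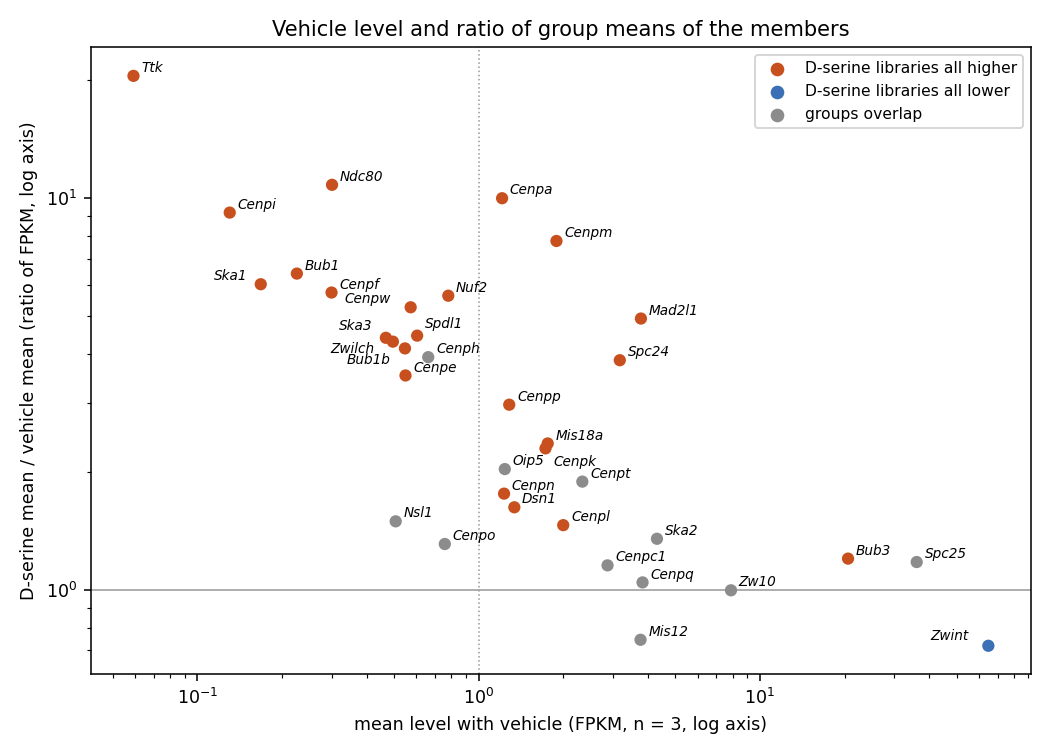
Ratio of the D-serine mean to the vehicle mean of each member against its vehicle mean in FPKM, both on log axes, each mean over 3 libraries, coloured by whether the groups overlap. Zwint at the far right has a ratio of 0.719, while Cenpa with a vehicle mean of 1.21 FPKM has a ratio of 10.0. The point of Ttk rests on very few vehicle fragments, and so do others at the left. The lowest vehicle library stood for about 2.0 fragments of Ska1, 2.4 of Cenpi, 3.0 of Cenph and 4.1 of Bub1.

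Genes of the same structures outside the set were listed as well, 30 in all. In limma 0 of the 21 tested passed at an adjusted p of 0.05, against 0.0767% of all tested genes, and at an unadjusted p under 0.05 there were 15 higher and 1 lower, with 13.1% of all tested genes higher. Of the 21, 4 (Apitd1, Knstrn, Aurkb and Kif2c) had a vehicle mean under 1 FPKM and were tested only through their D-serine libraries, so these counts and the p-values of those 4 are a description. For 23 of the 30 every D-serine library lay above every vehicle library, against 14.5% of genes, and for 1, Ndel1, every one lay below, at 48.1, 37.9 and 53.3 FPKM against 61.2, 55.1 and 60.9 FPKM. Cdc20, the activator that the checkpoint restrains, was at 1.68, 2.75 and 4.47 FPKM in vehicle kidneys against 59.9, 16.6 and 14.3 FPKM with D-serine. Knstrn, a spindle and kinetochore protein gene, was at 0.546, 0.991 and 1.05 FPKM and at 15.9, 5.61 and 4.70 FPKM. These 2 genes had log2 differences of 2.74 ± 0.52 and 2.22 ± 0.39 (adjusted p = 0.063 and 0.0583). The chromosomal passenger complex, whose kinase corrects faulty attachments, had all 3 of the subunits named here higher without overlap. Its kinase gene Aurkb was at 0.363, 0.571 and 0.604 FPKM and at 8.07, 3.04 and 2.68 FPKM. Its scaffold gene Incenp was at 1.41, 1.29 and 1.79 FPKM and at 9.46, 4.33 and 4.31 FPKM. Birc5, the survivin gene of that complex, was at 4.44, 5.73 and 4.79 FPKM and at 76.8, 26.4 and 22.5 FPKM. In these 3 genes D-serine replicate 1 stood well above replicates 2 and 3, which were close to each other. Casc5, an older symbol of Knl1, the scaffold on which checkpoint proteins gather, lay under the minimum at 0.184, 0.0527 and 0.0557 FPKM and at 0.619, 0.281 and 0.228 FPKM.

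Other genes of that list had overlapping groups. Cenpb, which binds a repeat in centromeric DNA, was at 123, 122 and 131 FPKM in vehicle kidneys against 156, 139 and 110.3 FPKM with D-serine, with overlap (log2 difference 0.10 ± 0.14, adjusted p = 0.663). Mad2l1bp, which helps to silence the checkpoint, was at 9.85, 12.8 and 9.93 FPKM and at 12.1, 8.69 and 10.3 FPKM. Clasp1, a microtubule-stabilising protein gene, was at 2.92, 3.69 and 2.81 FPKM and at 3.12, 2.82 and 2.59 FPKM. None of these 3 separated the groups.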

How the data were processed

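Kidney RNA was extracted with TRIzol and made into TruSeq stranded mRNA libraries, per the labels' protocols. The submitters' processing notes name TopHat2 2.0.13, Bowtie2 2.2.3, SAMtools 0.1.19, Cufflinks 2.2.1 and, as build, mm10. Each sample has 1 table of FPKM that the authors deposited. Annotation, read length and strand setting were not given in the sources used here. FPKM has no counts, so no count test was run. The 11737 genes that averaged 1 FPKM or more were tested with limma 3.58.1 in R 4.3.3 on log2(FPKM + 1), with a mean-variance trend, two-sided, adjusted by Benjamini-Hochberg over all of them. This pseudocount understates differences of low genes. An exact 0 can be a failed estimate: Rpl26 was listed at 0 throughout. The fit was tested on simulated data. Relative depth was the mode of FPKM ratios of low genes, and totals came from 59 single-transcript genes. Positions are from GENCODE M21 (mm10), promoters from RefSeq.

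The members and lists were chosen with earlier results of these data known. The rule for values per library was up to 4 members of each role with the smallest p and up to 2 that overlapped or were not tested; others were added. Other genes were named by the 5 smallest and 3 largest p, besides Cdc20, Aurkb, Casc5 and Cenpb. Remaining subunits of a complex were added for its shares, and further genes named were chosen after their values were seen. Alternatives were other pseudocounts, minimums, scalings, variance models, a replicate block, small RNA genes left out and each library left out.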

Additional observations from a re-analysis of the deposited data

How the results depend on the processing

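Over 17 other fits single members gave 480 values, of which 432 kept their direction and side of the threshold, 33 passed it and 15 turned sign, all 15 in Oip5, Cenpq, Spc25 and Zw10. Members called higher numbered 0 in limma as reported and 0 with the replicate number as a block (replicate block), with no minimum, without the trend and under all 3 scalings. They numbered 4 and 5 with pseudocounts of 0.1 and 0.01 FPKM, where 1.46% and 1.88% of all genes passed in either direction, 3 with a minimum of 5 FPKM (1.61%), 5 with weighted libraries (2.29%) and 6 with small RNA genes left out (2.85%). Without 1 library the count ran from 0 to 8, with 8 without D-serine replicate 3 (5.19% of all genes) and 1, Cenpa, without D-serine replicate 1 (0.231%), and members called lower from 0 to 1 (Zwint). With fewer genes tested, the minimum of 5 FPKM left 9 members, 5 of them higher without overlap, against 16.1% of all genes at that minimum. The 3 called there, Cenpa, Cenpm and Mad2l1, had vehicle means of 1.21, 1.89 and 3.77 FPKM. Spc24 and Ska2 had vehicle means of 3.17 and 4.30 FPKM. These members reached 5 FPKM only with their D-serine libraries, so the counts at that minimum are a description. Ndc80, called with other pseudocounts, weighted libraries and small RNA genes left out, had a vehicle mean of 0.301 FPKM. Those counts are a description too. Members lower without overlap ran from 1 to 3 without 1 library, and the median of tested members from 0.24 without D-serine replicate 1, when 23 were tested, to 1.06. The labels do not say that replicate numbers pair samples, so the numbers were not taken as pairs. Deviations of same-numbered libraries from their group means had correlations of -0.07, 0.003 and 0.07. With 3 libraries per group these values cannot decide whether samples were paired.

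Other kinetochore genes called higher numbered 5 and 6 of 21 with pseudocounts of 0.1 and 0.01 FPKM (median 0.99 with the latter). Of all genes 1.46% and 1.88% passed there in either direction. With a minimum of 5 FPKM 1 of 11 was called (1.61% of all genes), and 7 were higher without overlap, against 16.1% of all genes. Among those 7, Birc5 (the 1 called), Cdc20, Cdca8 and Plk1 had vehicle means of 4.99, 2.96, 1.82 and 1.44 FPKM. They reached that minimum only with their D-serine libraries, so the counts at that minimum are a description. Weighted libraries gave 7 of 21 (2.29%), and small RNA genes left out gave 8 of 21 (2.85%). Without 1 library the count ran from 0 to 9, with 3 of 19 without D-serine replicate 1 (0.231%) and 9 of 21 without D-serine replicate 3 (5.19%). Under quantile normalization and upper quartile scaling 0 were lower without overlap. Cenpq turned to 0.000678 with median of ratios scaling, 0.020 with upper quartile scaling and 0.0886 with weighted libraries, and ran from -0.29 to 0.21 without 1 library. Zw10 turned to 0.0074, 0.00999 and 0.0303 with median of ratios, quantile and upper quartile scaling and ran from -0.0632 to 0.0711, Oip5 from -0.0126 to 0.81 and Spc25 from -0.14 to 0.35. Promoters before the start alone held CHR in 9 of 32 members (28.1%, against 18.4% of protein-coding genes) and the E2F-like letters in 4 (12.5%, against 3.77%), in a shorter window. Among the 21 tested members sharing no exon base with another gene, a choice made after seeing the data, 16 were higher and 1 lower without overlap. Of all tested genes 16.5% were higher and 19.4% lower in that way. Except where fewer genes, samples or bases were used, the cause was not tested. Low depth limits most the members under 1 FPKM.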
